A study of Mus musculus with 12 samples.

Results

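The nuclear genome supplies most subunits of the mitochondrial respiratory chain, and their messenger RNA was followed here in mouse small cell lung tumours treated with entinostat, with an antibody to PD-1, or with both. The genes were taken by symbol from the table of gene counts: every row that starts with Nduf, Uqcr or Atp5, every Cox row numbered 4 to 8, and Sdha, Sdhb, Sdhc and Sdhd, without pseudogene rows marked by a suffix. This gave 92 of 22738 rows, of which 38 were placed in complex I, 4 in complex II, 8 in complex III, 18 in complex IV and 15 in complex V. The other 9 are no subunits of a complex: 7 Ndufaf genes for assembly factors of complex I, and Atp5s and Atp5sl. Of the 92 rows, 90 had enough counts for testing among 17426 genes tested in all. Cox7b2 and Cox8c, isoforms known from other tissues, had at most 8 and 2 counts in any library and were not tested.

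Tumours arose in RPM mice, which carry floxed alleles of Rb1 (Rb1 fl/fl) and of Trp53 (p53 fl/fl) and a lox-stop-lox Myc allele with the T58A change (Myc lsl/lsl), after an adenovirus with Cre behind the CGRP promoter (Ad5CGRP-Cre) was instilled into the trachea at 8 weeks of age. CGRP marks pulmonary neuroendocrine cells, so Cre deletes Rb1 and Trp53 and switches on stabilised Myc in those cells, and every library carries this genotype. The 4 groups of 3 libraries were the combination of entinostat and anti-PD-1, entinostat alone at 15 mg/kg by mouth each day for 28 days, anti-PD-1 alone at 10 mg/kg for 4 weeks, and control. Entinostat inhibits class I histone deacetylases, and the antibody blocks a checkpoint receptor on T cells. Combination libraries were grouped by their titles, which name both agents; their treatment field lists only the antibody. Vehicle and isotype antibody controls existed, but the labels do not say which of them the control libraries received. Each count column carries a number of its own in its header, but no label says whether that number marks a mouse. The p-values therefore rest on the spread between libraries, which may be technical.

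Complex I, NADH dehydrogenase, and complex II, succinate dehydrogenase, feed electrons into ubiquinone. Complex III passes them to cytochrome c, complex IV (cytochrome c oxidase) passes them to oxygen, and complex V, the ATP synthase, uses the proton gradient built by complexes I, III and IV. Complexes I, III, IV and V also hold subunits encoded by mitochondrial DNA, which were not analysed here. Transcription of many nuclear subunits is linked in the literature to the factors NRF1, GABPA and YY1.

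Respiratory chain messages were lower in tumours given entinostat, in each of the 5 complexes. The summed level of all 92 genes was 9016 ± 1462 CPM in combination libraries, 9816 ± 522 CPM in entinostat libraries, 14326 ± 2718 CPM in anti-PD-1 libraries and 16024 ± 2579 CPM in control libraries (mean ± SD, n = 3 each). CPM are counts scaled to a common library total, after correction of library sizes. The libraries summed to 7703 to 10591 CPM in the combination group, 9243 to 10264 CPM in the entinostat group, 11208 to 16199 CPM in the anti-PD-1 group and 13127 to 18070 CPM in the control group. All 6 libraries with entinostat thus lay below all 6 without it.

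Averaged over tumours with and without the antibody, entinostat lowered 50 of the 90 genes tested and raised none past an adjusted p of 0.05 in edgeR's quasi-likelihood test with Benjamini-Hochberg adjustment. Of the 17426 genes tested, 6.74% were lower and 3.87% higher by the same rule. This average of the entinostat effect without and with anti-PD-1 is called the main effect of entinostat. By complex, 23 of 38 genes fell in complex I, 2 of 4 in complex II, 5 of 8 in complex III, 7 of 16 tested in complex IV and 12 of 15 in complex V. Of the 9 genes that are no subunits, 1 fell. The median log2 fold change of the 90 genes was -0.64, against 0.02 over all genes tested. In the combination against control, 43 of 90 fell and none rose, where 7.78% of all genes tested were lower and 3.88% higher, with a median of -0.83 for the 90 genes against 0.05 over all genes. In entinostat alone against control, 26 of 90 fell and none rose, where 3.98% of all genes tested were lower and 1.3% higher, with a median of -0.72 against 0.00. The combination libraries lay below all controls for 59 of the 90 genes and above for none, against 16.7% and 15.2% of all genes tested. Those with entinostat alone lay below all controls for 55 and above for 1, against 15.7% and 13.1%. DESeq2 called 67 of the 90 genes lower in the main effect, where it called 11.9% of all genes lower and 8.67% higher. For the combination it called 52 lower, against 12.4% lower and 8.76% higher of all genes, and for entinostat 39, against 9.59% and 5.44%. It called Ndufa4l2 and Cox4i2 higher in the main effect and in the combination. Same-numbered entinostat and control libraries had weakly correlated deviations from their group means, at 0.166 to 0.195, and no label says what the numbers mark. With the replicate number as a block over all 4 groups, edgeR called 12 of the 90 genes with entinostat in place of 26. Atp5c1, Atp5j, Cox5a, Sdhb and Uqcrb were among those that no longer passed. The share of all genes called with that block is not given.

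**Figure D1:**
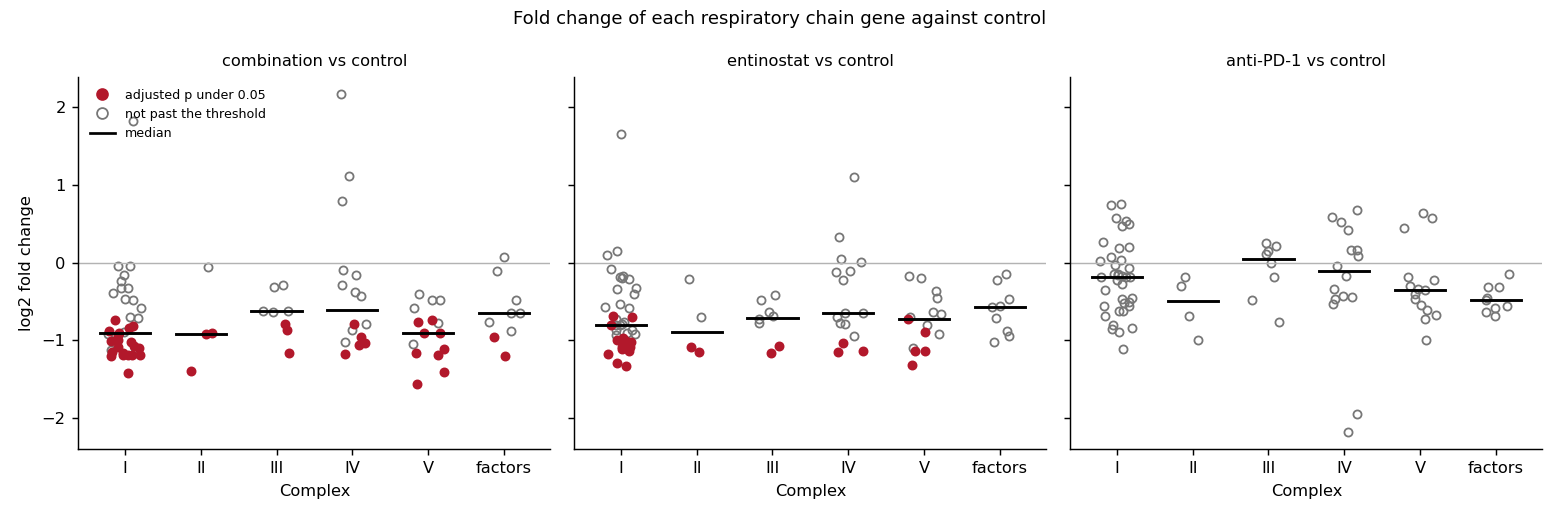
Log2 fold change against control of each of the 90 tested genes (y axis), by complex (x axis), for the combination, entinostat and anti-PD-1. Filled points have an edgeR adjusted p under 0.05, bars are medians. The filled points, 43 for the combination and 26 for entinostat, all lie below 0, and none is filled for anti-PD-1.

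The counts depended on single libraries, while the median moved less. Leaving out a single library, combination 1, 3, entinostat 2, 3, anti-PD-1 1 or control 2, brought the main effect count to 19, 23, 22, 22, 24 and 33, in that order. The combination count was 7 without combination 1 or combination 3, and 21 without control 1. The entinostat count was 4 without entinostat 1, 0 without entinostat 2 or entinostat 3, 5 without control 1, 8 without control 2 and 16 without combination 1. At the 2 settings with a count of 0 in edgeR, 52 and 48 of the 90 genes had an unadjusted p under 0.05. In the main fit 61 of the 90 and 4259 of 17426 genes had such a p, and the refits were not counted over all genes. Over all 12 such refits the median log2 fold change of the 90 genes stayed between -0.73 and -0.58 in the main effect, between -0.92 and -0.71 for the combination and between -0.82 and -0.66 for entinostat. Of the named genes, Atp5b, Atp5c1, Atp5h, Atp5o, Cox5b, Cox6a1, Cox6b1, Ndufa8, Ndufa12, Ndufa13, Ndufb10, Sdhb and Uqcrc2 passed in the main effect in all 12 refits, whereas the named calls of entinostat alone passed in 2 to 10 of 12. Upper quartile scaling lowered the counts to 28, 18 and 8 in the main effect, the combination and entinostat. For these refits the share of all genes called is not given, so a loss of calls may not be particular to the 90 genes.

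The groups also differed in features shared with many other genes. Respiratory chain messages are short, with a median of 746 nt against 2548 nt over all genes with a length, and most are abundant. Among other genes averaging log2 CPM 5 or more, those in the shortest of 8 length bins, 43 to 1014 nt (n = 500), changed by a median log2 of -0.51 in the main effect, -0.63 for the combination, -0.53 for entinostat and -0.15 for anti-PD-1. In the next bin, 1014 to 1552 nt (n = 484), these medians were -0.53, -0.79, -0.75 and -0.45. In a fit that removed a smooth trend on transcript length from each library, 29 of the 90 genes were called lower in the main effect, 34 for the combination and 9 for entinostat. The share of all genes called in that fit is not given, so these counts do not show whether these genes alone lost calls.

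Markers of cell types were read too, and the medians of their lists went in both directions. The median of 16 alveolar epithelial markers was a log2 fold change of 1.34 for the combination, 1.39 for entinostat and 0.53 for anti-PD-1, with 0 of 16 past the threshold in edgeR in each. They summed to 266 to 1595 CPM in combination libraries, 395 to 1451 CPM in entinostat, 327 to 986 CPM in anti-PD-1 and 299.9 to 976 CPM in control libraries. The 13 neuroendocrine tumour markers summed to 529 to 1026, 683 to 1194, 906 to 1451 and 1227 to 2148 CPM in the same groups. In the main effect 4 of 13 fell, where 6.74% of all genes tested were lower. The 9 fibroblast and matrix markers summed to 769.5 to 1975, 1087 to 1303, 230.3 to 1210 and 385 to 558 CPM. Of these, 3 of 9 rose in the main effect, where 3.87% of all genes tested were higher. The 10 macrophage and monocyte markers summed to 44.1 to 186, 62.5 to 113, 51.4 to 98.3 and 18.8 to 71.0 CPM, with 0 of 10 past the threshold in edgeR. No marker of these 4 lists was at 0 in all libraries. For the other lists, median log2 fold changes with entinostat and the combination were -0.07 and -0.55 for airway epithelium and -0.62 and 0.59 for T and NK cells. They were 0.615 and 0.878 for endothelium, 0.70 and -0.97 for striated muscle and heart, -0.41 and 1.58 for adipose and 1.23 and 0.695 for erythroid markers. No tested marker of these other lists passed in edgeR in either comparison. With the alveolar score as a covariate, the median over the 90 genes in the main effect was -0.66, and 9 of them passed in edgeR. In that fit 6 passed for the combination and 0 for entinostat, where 50 of the 90 had an unadjusted p under 0.05 in edgeR and DESeq2 without the covariate called 39. Shares over all genes in that fit are not given. In the main fit of entinostat against control, 4259 of 17426 genes had an unadjusted p under 0.05 in edgeR. The part of the other cell types in these results was not tested, and in bulk tissue fewer cells of a type and less RNA per cell cannot be told apart.

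Libraries held 31295987 to 54001886 counts. Structural RNA (Rpph1, Rn45s and Rmrp) took 17.7% to 18.0% of counts in combination, 15.2% to 19.3% in entinostat, 20.5% to 36.4% in anti-PD-1 and 7.84% to 13.2% in control libraries. Removing those 3 rows left 50, 43 and 26 genes called in the main effect, the combination and entinostat. Rb1 was read in every library at 26.6 to 81.7 CPM and Myc at 50.6 to 273 CPM, and counts per gene do not show whether the floxed exons were deleted. Many respiratory chain genes have processed pseudogenes, and how reads with several matches were counted was not stated, so their levels are uncertain to that extent.

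**Figure D2:**
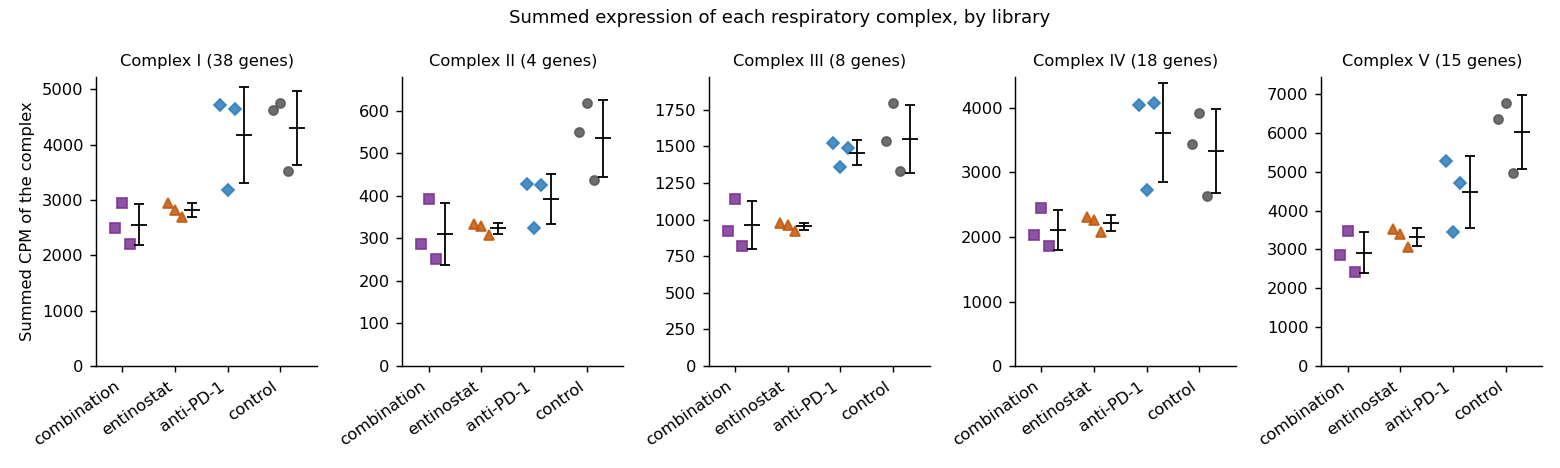
Summed CPM of the genes of each complex (y axes, from 0) in each library, by group, and bars show mean ± SD of 3 libraries. In every complex the 6 libraries with entinostat lie below the 3 control libraries, and complex V of the combination stands at 48.4% of control.

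Complex I was lower with entinostat in its catalytic core and in its accessory shell. Its 38 genes summed to 2553 ± 371 CPM in combination libraries, 2816 ± 128 CPM in entinostat libraries, 4181 ± 869 CPM in anti-PD-1 libraries and 4302 ± 675 CPM in control libraries (SD, n = 3 each), or 59.4%, 65.5% and 97.2% of control for the 3 treatments. These sums hold Ndufa4, an abundant gene since reassigned to complex IV, which was highest on average with anti-PD-1 and raises that group's value. The nuclear catalytic core has 7 genes, which carry the flavin and the iron-sulfur clusters. In the main effect 5 of these 7 fell, in the combination 7 of 7 and with entinostat alone 5 of 7. Of the 30 accessory genes, 18 fell in the main effect, 14 in the combination and 9 with entinostat.

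Within the core, Ndufv1, which binds NADH and the flavin, had 50.8, 64.7 and 54.1 CPM in the combination libraries, 62.0, 62.4 and 63.6 CPM in the entinostat libraries, 78.7, 58.2 and 69.2 CPM in the anti-PD-1 libraries and 106, 99.9 and 97.5 CPM in the control libraries. All control libraries lay above the 9 others. The log2 fold change in edgeR was -0.84 (SE 0.16, adjusted p = 0.0128) for the combination, -0.69 (SE 0.16, adjusted p = 0.0352) for entinostat and -0.49 (SE 0.11, adjusted p = 0.025) in the main effect. Ndufs1, the largest iron-sulfur subunit, had 66.6, 68.2 and 47.3 CPM in the combination libraries, 60.8, 75.6 and 66.0 CPM in the entinostat libraries, 89.0, 77.9 and 52.9 CPM in the anti-PD-1 libraries and 171, 129 and 84.3 CPM in the control libraries. The combination and entinostat libraries all lay below control, while an anti-PD-1 library was as low as these. It fell in the combination, at -1.08 (SE 0.28, adjusted p = 0.031) on the log2 scale in edgeR, and stood at -0.60 (SE 0.19, adjusted p = 0.0679) in the main effect. Ndufs7 and Ndufs8, which hold the clusters nearest to ubiquinone, fell in all 3 entinostat comparisons, with main effects of -0.83 (SE 0.16) and -0.54 (SE 0.12). Ndufs3 stood at -0.91 (SE 0.20) and Ndufv2 at -0.81 (SE 0.16) in the main effect, and both fell.

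Among accessory subunits the smallest p in the main effect belonged to Ndufb10, of the membrane arm. It had 48.7, 52.8 and 47.8 CPM in the combination libraries, 59.4, 53.4 and 47.0 CPM in the entinostat libraries, 80.3, 56.0 and 83.7 CPM in the anti-PD-1 libraries and 116, 122 and 102 CPM in the control libraries. The control libraries were the 3 highest, the anti-PD-1 libraries came between, and 1 of these lay within the range of the entinostat libraries. Its log2 fold change in edgeR was -0.82 (SE 0.13, adjusted p = 0.00754) in the main effect, -1.19 (SE 0.19, adjusted p = 0.00823) for the combination and -1.09 (SE 0.18, adjusted p = 0.0157) for entinostat. Ndufa13, also called GRIM-19, had 41.6, 47.9 and 37.9 CPM in the combination libraries, 43.4, 41.9 and 31.1 CPM in the entinostat libraries, 59.8, 47.1 and 51.2 CPM in the anti-PD-1 libraries and 107, 107 and 78.9 CPM in the control libraries. Again the control libraries stood apart at the top, with log2 fold changes in edgeR of -1.20 (SE 0.20, adjusted p = 0.00877) for the combination, -1.33 (SE 0.20, adjusted p = 0.0116) for entinostat and -0.89 (SE 0.20, adjusted p = 0.113) for anti-PD-1, the last past the threshold in DESeq2 and not in edgeR. Ndufa9, at the joint of the 2 arms of the complex, had 43.7, 49.9 and 26.0 CPM in the combination libraries, 49.2, 45.3 and 36.7 CPM in the entinostat libraries, 57.0, 42.7 and 48.6 CPM in the anti-PD-1 libraries and 133, 111 and 77.7 CPM in the control libraries. It showed the lowest fold change of complex I in the combination, -1.42 (SE 0.27, adjusted p = 0.0123) on the log2 scale in edgeR, and stood at -1.11 (SE 0.27, adjusted p = 0.124) with anti-PD-1.

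Ndufa12 and Ndufa8 separated the libraries by entinostat alone. Ndufa12 had 42.3 to 58.6 CPM with a median of 51.4 in the 6 libraries with entinostat, and 59.0 to 132 CPM with a median of 98.9 in the 6 without. Ndufa8 had 41.7 to 56.9 CPM with a median of 46.1 with entinostat, and 60.2 to 136 CPM with a median of 82.3 without it. Neither gene's ranges overlapped. Their main effects in edgeR were -0.85 (SE 0.15, adjusted p = 0.0119) for Ndufa12 and -0.85 (SE 0.16, adjusted p = 0.0119) for Ndufa8 on the log2 scale. Complete separation of the 6 libraries with entinostat below the 6 without it was seen for 12 of the 90 genes, against 2.32% of all genes tested, and in the other direction for none, against 2.01%. The other 10 were Ndufa1, Ndufb2, Ndufb3, Ndufb7, Ndufb8, Ndufb11 and Ndufs8 of complex I and Cox5b, Cox6a1 and Cox6b1 of complex IV.

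Of the 38 complex I genes, 12 passed in no comparison in edgeR. Besides the isoform Ndufa4l2 these were Ndufa3, Ndufa4, Ndufa6, Ndufa7, Ndufab1, Ndufb4, Ndufb5, Ndufc1, Ndufs4, Ndufs5 and Ndufs6. DESeq2 called 8 of these 12 in some comparison, leaving Ndufa3, Ndufc1, Ndufs4 and Ndufs6. Ndufa4, which carries a complex I name and has been reassigned to complex IV, had 303, 307 and 209 CPM in the combination libraries, 297, 339.6 and 377 CPM in the entinostat libraries, 734, 389 and 669.7 CPM in the anti-PD-1 libraries and 366, 445 and 259.9 CPM in the control libraries. Its anti-PD-1 libraries were the highest on average, 2 of them above all others. The log2 fold change was -0.61 (SE 0.19) in the main effect and 0.74 (SE 0.27) for anti-PD-1 against control, neither past the threshold in edgeR. DESeq2 called Ndufa4 lower in the main effect, at -0.61 with an adjusted p of 0.0262, and in the combination against anti-PD-1, at -1.15 with an adjusted p of 0.0137. Ndufab1, the mitochondrial acyl carrier protein, ranged over 42.8 to 50.6 CPM in combination, 36.6 to 48.8 CPM in entinostat, 48.6 to 67.7 CPM in anti-PD-1 and 48.2 to 73.9 CPM in control libraries, with a main effect of -0.45 (SE 0.15) that did not pass in edgeR and passed in DESeq2 with an adjusted p of 0.0378.

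**Figure D3:**
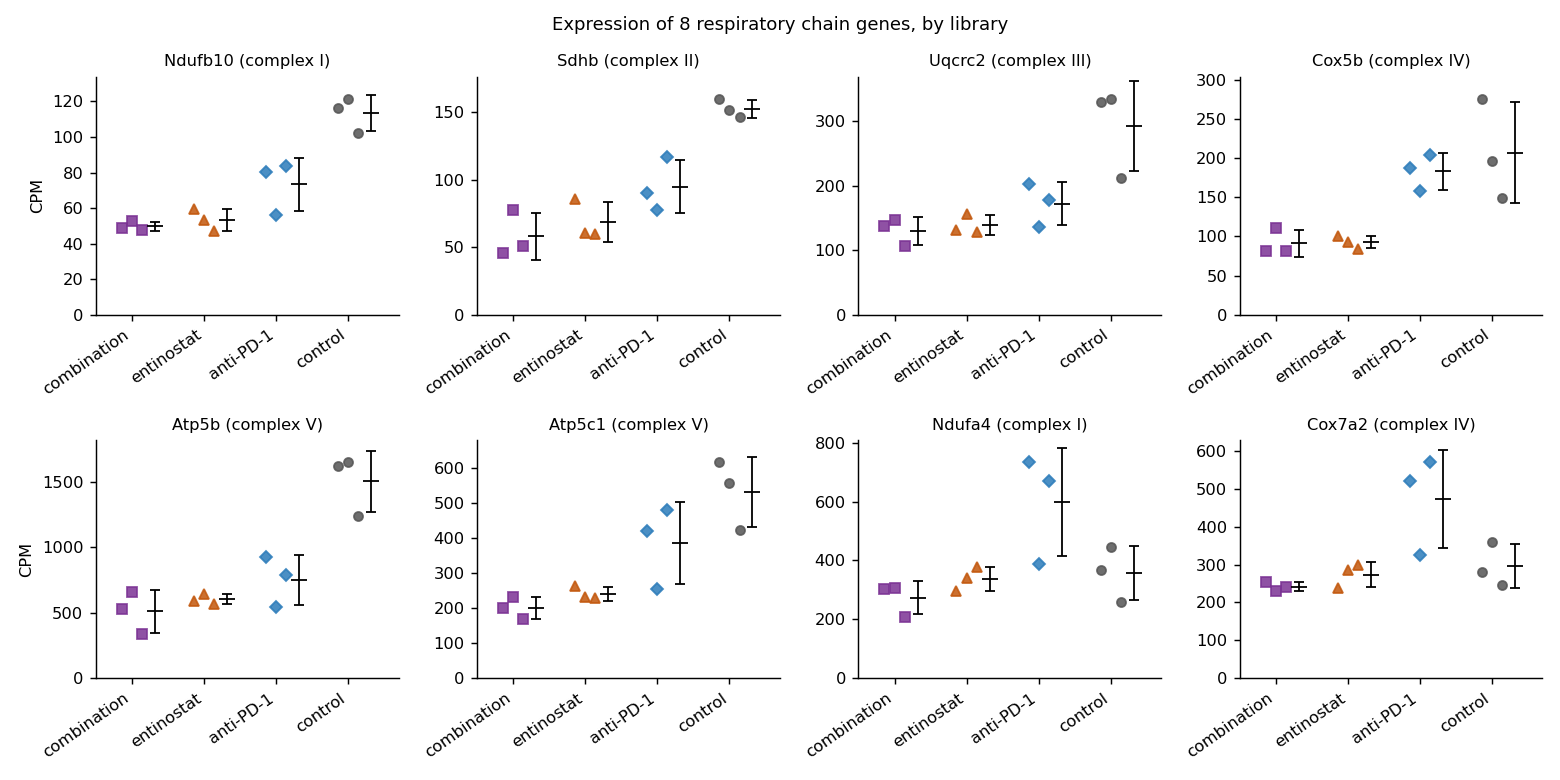
CPM of 8 respiratory chain genes (y axes, from 0) in each library, by group, with mean ± SD of 3 libraries. Cox5b separates libraries by entinostat, Sdhb and Atp5b are highest in the 3 control libraries, and Ndufa4 and Cox7a2 are highest on average with anti-PD-1.

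In the combination 3 of the 4 genes of complex II fell, and the other was its catalytic flavoprotein. The 4 genes summed to 310.2 ± 72.3 CPM in combination libraries, 323 ± 13.0 CPM in entinostat libraries, 392 ± 58.3 CPM in anti-PD-1 libraries and 535 ± 90.6 CPM in control libraries (SD, n = 3 each). Sdhb, the iron-sulfur subunit, had 45.6, 77.5 and 50.9 CPM in the combination libraries, 85.4, 60.4 and 60.1 CPM in the entinostat libraries, 90.4, 77.7 and 117 CPM in the anti-PD-1 libraries and 160.0, 151 and 147 CPM in the control libraries. Control libraries lay above all others, and those with entinostat overlapped the anti-PD-1 range. In edgeR the log2 fold change was -1.40 (SE 0.24, adjusted p = 0.00962) for the combination, -1.15 (SE 0.24, adjusted p = 0.0248) for entinostat and -0.93 (SE 0.17, adjusted p = 0.0115) in the main effect. The membrane anchor Sdhc had 36.8, 45.5 and 29.9 CPM in the combination libraries, 34.7, 35.2 and 29.3 CPM in the entinostat libraries, 42.8, 32.7 and 30.7 CPM in the anti-PD-1 libraries and 90.3, 74.2 and 46.9 CPM in the control libraries, low in all 3 treatments, with -0.91 (SE 0.26, adjusted p = 0.0422) for the combination and -1.09 (SE 0.26, adjusted p = 0.0356) for entinostat in edgeR. The second anchor, Sdhd, had 107, 123 and 77.5 CPM in the combination libraries, 115, 122 and 123 CPM in the entinostat libraries, 180.1, 118 and 177 CPM in the anti-PD-1 libraries and 159, 264 and 160.2 CPM in the control libraries. One anti-PD-1 library lay within the range with entinostat, and all controls lay above that range. It fell in the combination, at -0.92 (SE 0.25, adjusted p = 0.0396), and in the main effect, at -0.66 (SE 0.18, adjusted p = 0.0391), on the log2 scale in edgeR. Sdha, the flavoprotein that oxidises succinate, had 97.0, 146 and 94.3 CPM in the combination libraries, 98.0, 110.2 and 96.3 CPM in the entinostat libraries, 113, 96.6 and 100.5 CPM in the anti-PD-1 libraries and 141, 128 and 83.6 CPM in the control libraries, and all 4 groups overlapped. Its main effect was -0.04 (SE 0.16, adjusted p = 0.875) in edgeR, which does not show that Sdha was unaffected.

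In complex III 5 of 8 genes fell in the main effect, 2 of its 3 core genes and 3 of its 5 small subunits. The 8 genes summed to 961 ± 164 CPM in combination libraries, 954 ± 26.0 CPM in entinostat libraries, 1457 ± 84.7 CPM in anti-PD-1 libraries and 1552 ± 232 CPM in control libraries (SD, n = 3 each). Uqcrc2, a core protein, had 137, 146 and 106 CPM in the combination libraries, 132, 156 and 128 CPM in the entinostat libraries, 202, 136 and 178 CPM in the anti-PD-1 libraries and 330.3, 335 and 212 CPM in the control libraries. Control libraries were the highest, and the anti-PD-1 libraries overlapped those with entinostat. The log2 fold change in edgeR was -1.17 (SE 0.23, adjusted p = 0.0132) for the combination, -1.08 (SE 0.23, adjusted p = 0.0264) for entinostat and -0.74 (SE 0.16, adjusted p = 0.0192) in the main effect. Its partner Uqcrc1 had 92.6, 117 and 85.3 CPM in the combination libraries, 112, 113 and 105 CPM in the entinostat libraries, 136, 106 and 125 CPM in the anti-PD-1 libraries and 220.1, 166 and 126 CPM in the control libraries, with a highest anti-PD-1 library inside the control range. It fell in the combination, at -0.80 (SE 0.21, adjusted p = 0.0365), and stood at -0.63 (SE 0.21, adjusted p = 0.101) for entinostat in edgeR. Uqcrfs1, the Rieske iron-sulfur protein that hands electrons to cytochrome c1, had 78.1, 137 and 84.4 CPM in the combination libraries, 88.1, 91.4 and 89.4 CPM in the entinostat libraries, 133, 262 and 157 CPM in the anti-PD-1 libraries and 145, 194 and 123 CPM in the control libraries. An anti-PD-1 library was the highest and a combination library lay within the range of control, and the gene fell in the main effect, at -0.83 (SE 0.21, adjusted p = 0.029) in edgeR.

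Of the small subunits, Uqcrb had 63.0, 113 and 84.6 CPM in the combination libraries, 36.3, 49.4 and 58.5 CPM in the entinostat libraries, 138, 115 and 123 CPM in the anti-PD-1 libraries and 120.4, 128 and 76.0 CPM in the control libraries, lowest in the entinostat libraries, which lay below all 9 others. It fell with entinostat, at -1.17 (SE 0.27, adjusted p = 0.0333), and stood at -0.31 (SE 0.27, adjusted p = 0.452) for the combination in edgeR. The combination against entinostat was not called in edgeR for any of the 90 genes, nor was the interaction, so these values are not shown to differ. Uqcrh, the hinge protein, had 234 to 292 CPM with a median of 282 in the 6 libraries with entinostat, and 277 to 506 CPM with a median of 425 in the 6 without it. The ranges overlapped in 1 control library, and the main effect was -0.61 (SE 0.15, adjusted p = 0.0267) in edgeR. Uqcr11 fell in the combination and the main effect, while Uqcr10 and Uqcrq, at -0.42 (SE 0.22) and -0.66 (SE 0.26) in the main effect, passed in no comparison in edgeR or DESeq2.

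Complex IV fell in its common subunits, and its tissue isoforms were low in every library. The 18 genes, without Ndufa4, summed to 2112 ± 306 CPM in combination libraries, 2217 ± 117 CPM in entinostat libraries, 3615 ± 766 CPM in anti-PD-1 libraries and 3332 ± 649.7 CPM in control libraries (SD, n = 3 each), where anti-PD-1 was at 108.5% of control and the combination at 63.4%. The anti-PD-1 value has no set direction: the mean log2 CPM over the tested genes was 5.40 with anti-PD-1 and 5.45 in control, the share of counts 0.314% and 0.323%, and the median log2 fold change -0.11. With upper quartile scaling the mean log2 CPM of complex IV relative to control turned from negative to positive, to 0.06 for the combination and 0.11 for anti-PD-1, within the spread between libraries. Cox5b, a zinc-binding subunit on the matrix side, had the smallest main effect p of all 90 genes. It had 82.0, 111 and 80.8 CPM in the combination libraries, 101, 93.5 and 84.4 CPM in the entinostat libraries, 187, 158 and 204 CPM in the anti-PD-1 libraries and 276, 196 and 149 CPM in the control libraries. The highest of the 6 libraries with entinostat was below the lowest of the 6 without. In edgeR its log2 fold change was -1.08 (SE 0.16, adjusted p = 0.00716) in the main effect, -1.18 (SE 0.23, adjusted p = 0.0134) for the combination and -1.16 (SE 0.23, adjusted p = 0.0231) for entinostat.

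Cox6a1 had 80.0, 84.4 and 94.3 CPM in the combination libraries, 81.5, 84.1 and 74.5 CPM in the entinostat libraries, 148, 101 and 117 CPM in the anti-PD-1 libraries and 174, 214 and 141 CPM in the control libraries, and Cox6b1 had 155, 179 and 150.2 CPM in the combination libraries, 163, 181 and 172 CPM in the entinostat libraries, 346, 236 and 310.3 CPM in the anti-PD-1 libraries and 282, 340.0 and 217 CPM in the control libraries. Both separated libraries with entinostat from those without, and 2 of the 3 anti-PD-1 libraries lay under the control range for Cox6a1 and none for Cox6b1. In edgeR the main effects were -0.82 (SE 0.14, adjusted p = 0.00951) for Cox6a1 and -0.79 (SE 0.14, adjusted p = 0.0112) for Cox6b1. Cox5a fell in all 3 entinostat comparisons, with -0.81 (SE 0.19, adjusted p = 0.0241) in the main effect in edgeR. Cox4i1, the subunit that binds ATP as a regulator, had 398, 552 and 346 CPM in the combination libraries, 553, 429 and 391 CPM in the entinostat libraries, 839, 510.3 and 941 CPM in the anti-PD-1 libraries and 838, 957 and 577 CPM in the control libraries. The entinostat and combination libraries lay below control, and the main effect was -0.81 (SE 0.20, adjusted p = 0.0291) in edgeR. Cox7a2l, linked to the assembly of supercomplexes, fell at -0.64 (SE 0.17, adjusted p = 0.0384) and Cox8a at -0.65 (SE 0.19, adjusted p = 0.0471) in the main effect in edgeR. The remaining common subunits Cox6c, Cox7a2, Cox7b and Cox7c did not pass in edgeR, at -0.49 (SE 0.23), -0.54 (SE 0.16), -0.54 (SE 0.18) and -0.60 (SE 0.21) in the main effect. In DESeq2 Cox7a2, Cox7b and Cox7c passed there, with adjusted p of 0.0143, 0.0352 and 0.0417.

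The isoforms that replace common subunits in heart, muscle, lung or testis were minor in every group. Per transcript length, each made up less than 6% of the sum with its common partner in any library. The share of Ndufa4l2 in the sum with Ndufa4 averaged 2.73% ± 2.70 with the combination, 1.72% ± 1.35 with entinostat, 0.485% ± 0.126 with anti-PD-1 and 0.572% ± 0.239 in control tumours (SD, n = 3 each). That of Cox4i2, the isoform of hypoxia and lung, averaged 1.88% ± 2.31, 0.778% ± 0.317, 0.226% ± 0.0885 and 0.219% ± 0.123 in the same order. Cox4i2 had 2.83, 2.01 and 15.9 CPM in the combination libraries, 2.37, 3.43 and 4.09 CPM in the entinostat libraries, 2.67, 0.882 and 1.57 CPM in the anti-PD-1 libraries and 1.17, 1.41 and 2.02 CPM in the control libraries. A single library, combination 3, was far above the others, and the main effect was 1.56 (SE 0.52, adjusted p = 0.0737) in edgeR and 1.55 with an adjusted p of 0.0174 in DESeq2. Ndufa4l2, a target of hypoxia-inducible factor, had 11.7, 3.50 and 25.9 CPM in the combination libraries, 4.05, 23.1 and 9.62 CPM in the entinostat libraries, 6.38, 5.01 and 5.44 CPM in the anti-PD-1 libraries and 3.39, 3.77 and 4.504 CPM in the control libraries, with high libraries in both entinostat groups, and a main effect of 1.47 (SE 0.48, adjusted p = 0.0697) in edgeR and 1.46 with an adjusted p of 0.0133 in DESeq2. Cox6a2, Cox6b2, Cox7a1 and Cox8b ranged over 0.0196 to 12.8 CPM across all libraries and passed in no comparison in edgeR or DESeq2.

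Of the 5 complexes, complex V had the lowest summed level relative to control with the combination and with entinostat. The 15 genes summed to 2915 ± 526 CPM in combination libraries, 3331 ± 233 CPM in entinostat libraries, 4479 ± 935 CPM in anti-PD-1 libraries and 6025 ± 944 CPM in control libraries (SD, n = 3 each), or 48.4%, 55.3% and 74.3% of control. Atp5b, the catalytic beta subunit of the F1 head, had 527, 661 and 338 CPM in the combination libraries, 592, 645 and 569.6 CPM in the entinostat libraries, 924, 543 and 785 CPM in the anti-PD-1 libraries and 1619.8, 1649.8 and 1236 CPM in the control libraries. The 3 control libraries stood above all treated ones, and the lowest anti-PD-1 library fell within the range with entinostat. Its log2 fold change in edgeR was -1.56 (SE 0.27, adjusted p = 0.00956) for the combination, the lowest of the 90 genes there, -1.32 (SE 0.27, adjusted p = 0.0231) for entinostat and -0.94 (SE 0.19, adjusted p = 0.0144) in the main effect. For anti-PD-1 it was -1.001 (SE 0.26, adjusted p = 0.141), which did not pass in edgeR and passed in DESeq2 at -0.99 with an adjusted p of 0.0229.

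Atp5c1, the gamma subunit that turns inside the head, had 199.6, 233 and 169 CPM in the combination libraries, 265, 232 and 228 CPM in the entinostat libraries, 419.7, 255 and 481 CPM in the anti-PD-1 libraries and 618, 557 and 423 CPM in the control libraries. Only the lowest anti-PD-1 library overlapped those with entinostat. The main effect was -1.04 (SE 0.17, adjusted p = 0.00895) in edgeR and the combination stood at -1.41 (SE 0.25, adjusted p = 0.00982). The alpha subunit Atp5a1 had 473, 695 and 404 CPM in the combination libraries, 701, 600.4 and 569 CPM in the entinostat libraries, 733, 566 and 481 CPM in the anti-PD-1 libraries and 1085, 989 and 878 CPM in the control libraries. All treated libraries lay below control, but libraries with entinostat and with the antibody alone overlapped, so that it fell in the combination, at -0.91 (SE 0.23, adjusted p = 0.0313), and stood at -0.42 (SE 0.16, adjusted p = 0.116) in the main effect in edgeR. Atp5d, the delta subunit, was at 73.7 ± 10.4 CPM with the combination, 89.7 ± 11.9 CPM with entinostat, 96.3 ± 4.40 CPM with anti-PD-1 and 123 ± 4.25 CPM in control tumours (SD, n = 3 each) and fell in the main effect at -0.42 (SE 0.12, adjusted p = 0.04) in edgeR. Atp5e, the short epsilon subunit, was at 207 ± 23.9 CPM with the combination, 257 ± 43.4 CPM with entinostat, 452 ± 151 CPM with anti-PD-1 and 289 ± 116 CPM in control tumours (SD, n = 3 each) and passed in no comparison in edgeR. DESeq2 called it lower in the main effect, at -0.65 with an adjusted p of 0.0327, and in the combination against anti-PD-1, at -1.14 with an adjusted p of 0.032.

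In the stalk and membrane sector 9 of 10 genes fell in the main effect. Atp5o, which ties the head to the outer stalk, had 194, 219 and 163 CPM in the combination libraries, 199, 211 and 175 CPM in the entinostat libraries, 348, 213 and 242 CPM in the anti-PD-1 libraries and 386, 493 and 407 CPM in the control libraries. The lowest anti-PD-1 library lay within the range with entinostat, and control lay above all others. Its log2 fold change in edgeR was -1.16 (SE 0.21, adjusted p = 0.0111) for the combination, -1.14 (SE 0.21, adjusted p = 0.0198) for entinostat and -0.81 (SE 0.15, adjusted p = 0.0119) in the main effect. Atp5h fell in the main effect at -0.79 (SE 0.16, adjusted p = 0.0154) and Atp5f1, the b subunit of the stalk, at -0.65 (SE 0.18, adjusted p = 0.0412) on the log2 scale in edgeR. Atp5j, coupling factor 6, had 95.2 ± 13.8 CPM with the combination, 86.1 ± 5.13 CPM with entinostat, 116 ± 20.1 CPM with anti-PD-1 and 142 ± 17.0 CPM in control tumours (SD, n = 3 each) and fell with entinostat at -0.73 (SE 0.18, adjusted p = 0.0418) in edgeR. The proton-carrying c subunit is encoded by Atp5g1, Atp5g2 and Atp5g3, whose mature proteins are identical. Per transcript length, Atp5g3 made up 51.4% ± 5.85 of the 3 with the combination, 51.6% ± 2.73 with entinostat, 56.0% ± 1.82 with anti-PD-1 and 54.4% ± 1.85 in control (SD, n = 3 each). Atp5g1 made up 9.24% ± 0.659, 8.89% ± 1.05, 9.72% ± 0.814 and 10.9% ± 2.90, and Atp5g2 the rest. Atp5g1 and Atp5g3 fell in the main effect, at -0.87 (SE 0.24) and -0.81 (SE 0.23), and Atp5g2 stood at -0.50 (SE 0.20).

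**Figure D4:**
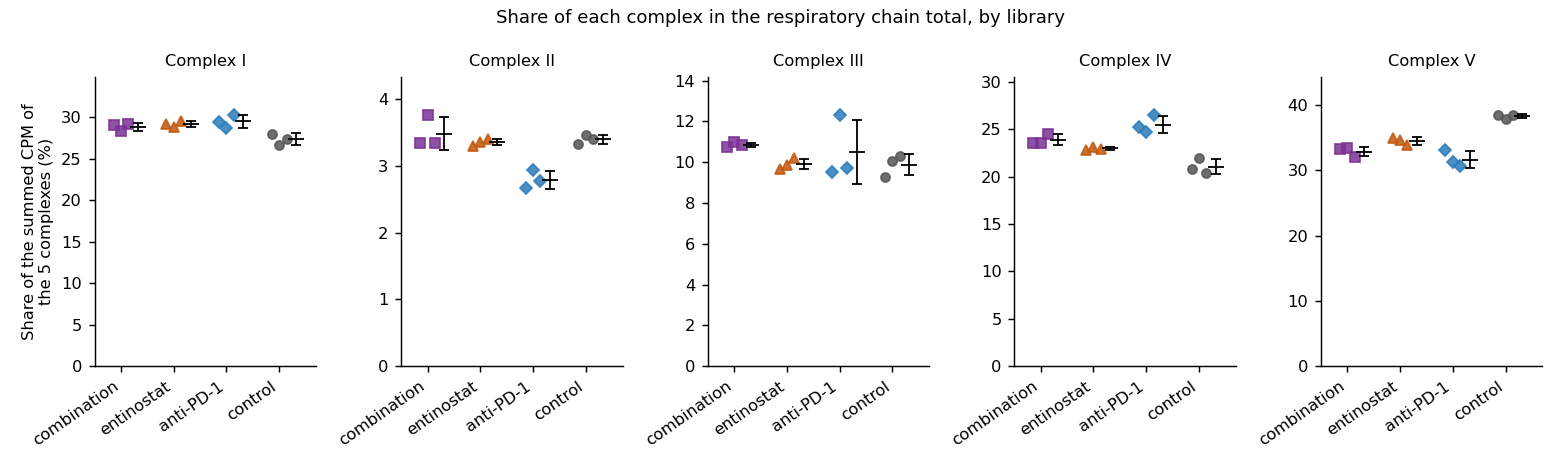
Share of each complex in the summed CPM of complexes I to V (y axes, percent, from 0) in each library, by group, with mean ± SD of 3 libraries. Complex V holds 37.9% to 38.5% in control libraries and at most 35.01% in any treated library. Complexes I and IV hold more in every treated library than in any control library, for complex I only with Ndufa4 counted in it.

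The proportions of the complexes differed between treated and control libraries. Complex V held 32.9% ± 0.718 of the summed CPM of the 5 complexes with the combination, 34.5% ± 0.589 with entinostat, 31.6% ± 1.24 with anti-PD-1 and 38.3% ± 0.348 in control (SD, n = 3 each). Complex IV held 23.9% ± 0.566, 23.0% ± 0.184, 25.5% ± 0.938 and 21.1% ± 0.798 in the same order. Complex I held 28.9% ± 0.483, 29.2% ± 0.346, 29.5% ± 0.771 and 27.3% ± 0.715. Complex II held 2.79% ± 0.137 with anti-PD-1 and 3.35% to 3.48% on average in the 3 other groups. For complexes I, IV and V no treated library overlapped control, those with the antibody alone included. For complex I this rests on Ndufa4, which is counted there although it has been reassigned to complex IV. Without the CPM of Ndufa4, the complex I shares of treated and control libraries overlap. Whether one complex fell more than another was not tested, and summed CPM give the abundant genes most weight.

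With anti-PD-1 alone 0 of the 90 genes passed the threshold in edgeR in either direction, where 0.00574% of all genes tested, 1 gene, was lower and 0% higher. At an unadjusted p under 0.05 there were 30 of the 90 genes, against 2691 of 17426. DESeq2 called 6 lower and 1 higher, where it called 3.42% of all genes lower and 1.5% higher. Those lower in DESeq2 included Atp5b, Ndufa13, Ndufa9, Ndufv1 and Sdhc, and the one higher was Ndufb4. The median log2 fold change was -0.29 over the 90 genes and 0.00 over all genes. The 3 anti-PD-1 libraries lay below all 3 controls for 19 of the 90 genes, against 10.7% of all genes tested, and above them for 5, against 6.79%.

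Short subunits stood higher than long ones with anti-PD-1. Ndufb4, of the membrane arm, had 95.3, 123 and 85.02 CPM in the combination libraries, 104, 122 and 118 CPM in the entinostat libraries, 204, 152 and 171 CPM in the anti-PD-1 libraries and 94.6, 126 and 91.9 CPM in the control libraries, highest with the antibody alone. Cox7a2 had 255, 230.4 and 241 CPM in the combination libraries, 237, 286 and 298 CPM in the entinostat libraries, 522, 326 and 571 CPM in the anti-PD-1 libraries and 279.6, 361 and 247 CPM in the control libraries, with 2 of 3 anti-PD-1 libraries above all others. Neither passed in edgeR, at 0.75 (SE 0.20, adjusted p = 0.142) and 0.68 (SE 0.23, adjusted p = 0.196) on the log2 scale. Over the 75 tested subunits without tissue isoforms, Pearson's r between the log2 fold change of anti-PD-1 against control and log2 transcript length was -0.49 and Spearman's rho -0.51, against -0.25 and -0.27 for entinostat and -0.26 and -0.33 for the combination, each against the same control libraries. In the main effect of entinostat they were 0.09 and 0.015. That effect averages entinostat against control and the combination against anti-PD-1, where they were 0.46 and 0.38. Its level slope is thus an average of opposite slopes and does not show an effect free of length. These are descriptions across genes that share the same libraries and are not independent. The 33 subunits under 700 nt had a median of -0.01 with anti-PD-1 and -0.70 in the main effect, and the 42 longer ones -0.41 and -0.70. In the main effect 19 of the 33 short and 30 of the 42 long subunits fell.

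**Figure D5:**
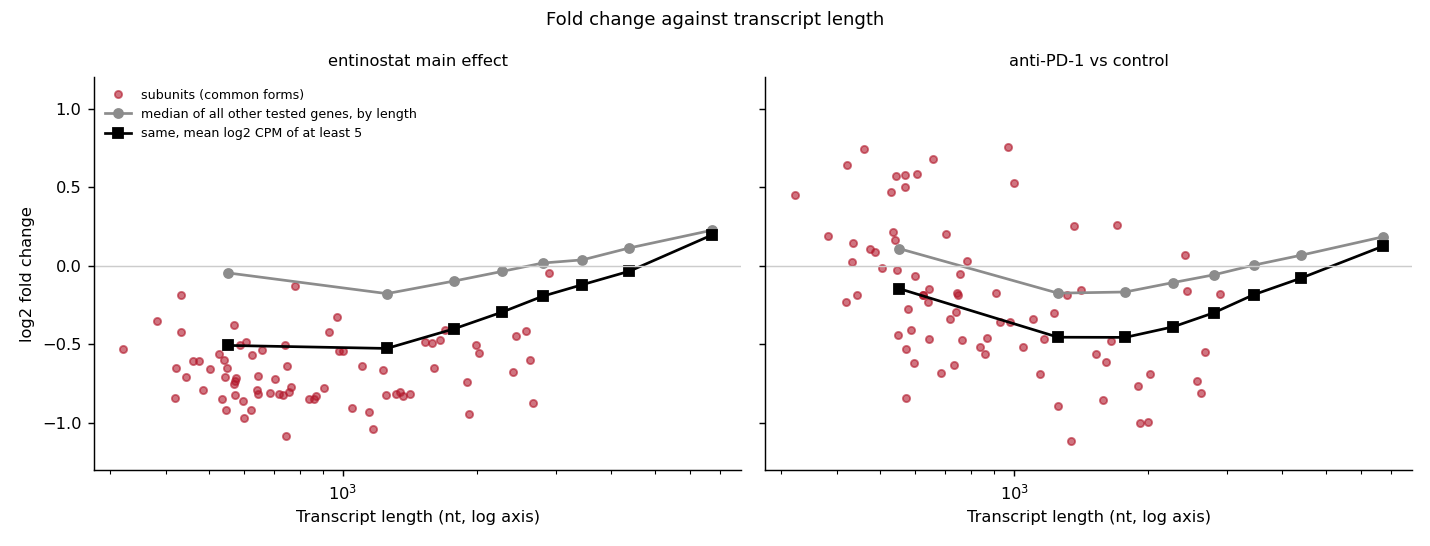
Log2 fold change (y axis) against transcript length (x axis, log scale) for 75 subunits, in the main effect of entinostat and for anti-PD-1 against control. Lines are medians of all other tested genes and of those averaging log2 CPM 5 or more, in 8 length bins. The subunits slope down with length for anti-PD-1 against control (r = -0.49) and lie level in the main effect (r = 0.09); entinostat against control, not drawn, has r = -0.25.

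Between the combination and either agent alone, 0 of the 90 genes passed the threshold in edgeR. For the combination against anti-PD-1, 0% of all genes tested were called in edgeR, 48 of the 90 had an unadjusted p under 0.05, against 2168 of 17426 genes, and the median log2 fold change was -0.56. DESeq2 called 14 of the 90 lower, where it called 1.52% of all genes lower and 1.03% higher, among them Ndufb6, Cox6b1, Cox7a2, Atp5k and Cox5b. Ndufb6 had 61.0, 76.3 and 55.9 CPM in the combination libraries, 87.5, 74.9 and 67.9 CPM in the entinostat libraries, 154, 95.3 and 184 CPM in the anti-PD-1 libraries and 98.6, 105 and 87.0 CPM in the control libraries, and the combination libraries lay below all anti-PD-1 libraries. The combination libraries lay below the anti-PD-1 libraries for 37 of the 90 genes and above for 2, against 9.25% and 9.92% of all genes tested. For the combination against entinostat, 0% of all genes tested were called in edgeR, and 1 of the 90 had an unadjusted p under 0.05, against 270 of 17426 genes. DESeq2 called 0 of the 90 and 0.00578% of all genes there, and the median was -0.10. The main effect of anti-PD-1 (0% of genes tested called) had a median of -0.18 with 19 of 90 at an unadjusted p under 0.05, against 1886 of 17426 genes. DESeq2 called none of the 90 in it and 1.35% of all genes. The interaction asks whether entinostat acted differently with the antibody (0% of genes tested called). It had a median of 0.21 with 15 of 90 at an unadjusted p under 0.05, against 1052 of 17426 genes. None of the 90 was called by DESeq2, which called 0.401% of all genes.

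The combination and entinostat comparisons share their control libraries, so they are given side by side and not as support for each other. For Atp5b the 2 values were -1.56 and -1.32, for Cox5b -1.18 and -1.16, for Ndufb10 -1.19 and -1.09, and for Sdhb -1.40 and -1.15 on the log2 scale.

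Levels between genes are comparable only per length. In control tumours the highest were Cox4i1 at 1047 CPM per kb, Uqcrh at 841, Atp5b at 784 and Ndufa4 at 776 CPM per kb. With the combination these 4 stood at 572, 545, 266 and 594 CPM per kb. Atp5b was above Ndufa4 in control and the lowest of the 4 with the combination. The assembly factors were lower, between 7.84 and 52.0 CPM per kb in control. Of them Ndufaf5 fell in the combination and in the main effect, with -1.20 (SE 0.30, adjusted p = 0.0278) and -0.83 (SE 0.21, adjusted p = 0.0302) in edgeR, and Ndufaf4 fell in the combination, with -0.96 (SE 0.27, adjusted p = 0.043).

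Promoters of the genes were read from RefSeq (build GRCm38.p6) for 76 of the 92 genes, with 82 start sites and windows of 300 bases, 250 before the start and 50 after. The search used 4 motifs on both strands: GCGCA and GCGC with any 1 base between for NRF1, CCGGAAG for the ETS family that includes GABPA, AAGATGGC for YY1 and CACGTG, the E-box of MYC and MAX. The NRF1 letters were in 24.4% of the 82 promoters and in 4.6% of all 32851 promoters of the same length. The ETS letters were in 20.7% against 8.86%, the YY1 letters in 14.6% against 2.75% and the E-box in 11.0% against 7.15%. Among subunits that fell in the main effect (48 promoters), 31.2% held the ETS letters and 22.9% the NRF1 letters, and among the other tested subunits (24 promoters) 4.17% and 29.2%. A match describes letters and does not show a bound site. The 250 bases before the start are shown for 4 of the 12 genes whose libraries separated completely by entinostat: Cox6a1 (chr5:115348959-115349208, minus strand), Cox6b1 (chr7:30626115-30626364, minus strand), Ndufa8 (chr2:36049339-36049588, minus strand) and Cox5b (chr1:36691237-36691486, plus strand). They were picked to show an NRF1 match, an ETS match, both and none, and do not represent the set: of the 12 stretches read for genes with the smallest main effect p and 1 promoter in the table, 9 held none of the 4 motifs, and no YY1 or E-box match is shown. Capitals mark the motif matches: NRF1 and ETS in Cox6a1, ETS in Cox6b1, NRF1 in Ndufa8, and none of the 4 motifs in Cox5b, the gene with the smallest main effect p.
Cox6a1: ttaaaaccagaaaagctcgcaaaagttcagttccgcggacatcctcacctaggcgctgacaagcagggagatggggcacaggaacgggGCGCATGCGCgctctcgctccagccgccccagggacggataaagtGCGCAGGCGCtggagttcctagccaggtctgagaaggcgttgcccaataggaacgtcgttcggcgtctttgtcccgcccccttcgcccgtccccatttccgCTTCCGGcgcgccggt
Cox6b1: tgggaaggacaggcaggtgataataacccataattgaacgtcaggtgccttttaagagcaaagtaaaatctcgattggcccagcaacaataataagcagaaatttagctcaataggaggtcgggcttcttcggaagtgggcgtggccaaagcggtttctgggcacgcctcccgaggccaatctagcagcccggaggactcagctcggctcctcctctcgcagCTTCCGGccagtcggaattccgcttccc
Ndufa8: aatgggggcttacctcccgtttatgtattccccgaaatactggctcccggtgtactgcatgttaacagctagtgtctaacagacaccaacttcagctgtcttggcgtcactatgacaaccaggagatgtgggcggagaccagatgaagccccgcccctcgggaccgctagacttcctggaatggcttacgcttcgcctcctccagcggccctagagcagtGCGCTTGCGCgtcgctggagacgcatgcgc
Cox5b: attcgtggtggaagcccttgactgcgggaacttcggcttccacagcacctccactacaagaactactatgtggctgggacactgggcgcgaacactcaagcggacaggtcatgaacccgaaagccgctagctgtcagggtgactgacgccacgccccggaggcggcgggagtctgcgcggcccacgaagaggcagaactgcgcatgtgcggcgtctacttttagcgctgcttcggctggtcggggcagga

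Genes around the chain were followed in 4 lists, with calls from edgeR. Their counts are to be read against all genes tested, of which 6.74% fell and 3.87% rose in the main effect, 7.78% and 3.88% in the combination and 3.98% and 1.3% with entinostat. Of 18 citric acid cycle genes, which make the NADH and succinate that the chain oxidises, 5 fell in the main effect, 8 in the combination and 3 with entinostat, with medians of -0.49, -0.86 and -0.73. With anti-PD-1 their median was -0.71 and none passed. Idh3b, of the NAD-dependent isocitrate dehydrogenase, was at 75 ± 10.1 CPM with the combination, 84.9 ± 2.70 CPM with entinostat, 92.5 ± 9.48 CPM with anti-PD-1 and 168 ± 10.5 CPM in control (SD, n = 3 each). Its log2 fold change in edgeR was -1.16 (SE 0.16, adjusted p = 0.00696) for the combination, -0.98 (SE 0.16, adjusted p = 0.0139) for entinostat and -0.64 (SE 0.11, adjusted p = 0.00995) in the main effect. Idh3g, of the same enzyme, and Suclg1, of succinyl-CoA ligase, fell in the combination and with entinostat, with -1.29 and -1.28 for the combination and -1.24 and -1.08 for entinostat on the log2 scale.

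Among 17 genes for the mobile electron carriers and cytochrome c1, 2 fell in the main effect, 2 in the combination and 0 with entinostat, with medians of -0.40, -0.57 and -0.62. Cytochrome c (Cycs) was at 71.3 ± 13.8 CPM in the 6 libraries with entinostat and 124 ± 31.96 CPM in the 6 without, and fell in the main effect at -0.80 (SE 0.20, adjusted p = 0.0293) in edgeR. Coq7, of ubiquinone synthesis, fell in the combination at -1.17 on the log2 scale. Cyc1, the cytochrome c1 subunit of complex III that the symbol rule does not catch, fell in the combination at -1.21 (SE 0.34, adjusted p = 0.0437) in edgeR. Of 37 assembly factors outside the symbol rule, 4 fell and 1 rose in the main effect, 4 fell in the combination and 2 with entinostat, which lies near the shares over all genes. Atpif1, the inhibitor that stops the ATP synthase from running backwards, fell in all 3, with a main effect of -1.02 (SE 0.13, adjusted p = 0.00555) in edgeR. The gene that rose was Cox20, at 0.60 (SE 0.17, adjusted p = 0.045).

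Of 14 regulators of respiratory genes, 2 rose in the main effect, the coactivators Pprc1 and Ppargc1b of the PGC-1 family, at 0.85 (SE 0.17, adjusted p = 0.015) and 1.29 (SE 0.34, adjusted p = 0.0349) in edgeR. In the combination Pprc1 rose and Tfam, which packages and transcribes mitochondrial DNA, fell, at -0.73 (SE 0.18, adjusted p = 0.026) in edgeR. Tfam was at 53.96 ± 11.0 CPM with the combination, 63.6 ± 6.87 CPM with entinostat, 62.7 ± 1.31 CPM with anti-PD-1 and 89.8 ± 4.18 CPM in control (SD, n = 3 each). Messages for the factors named above did not pass in edgeR: Nrf1 was at 50.4 ± 3.25 CPM with entinostat and 48.7 ± 13.4 CPM without it, and Gabpa at 64.6 ± 9.01 and 71.8 ± 17.5 CPM (SD, n = 6 each).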

How the data were processed

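RNA from 12 lung tumour libraries was sequenced after poly(A) selection. The authors deposited raw counts per gene; per the submitters' processing notes the tools included Trim Galore, Trimmomatic 0.36, STAR 2.5.4a, DESeq2 1.22.2 and R 3.5.1, with build mm9. Strand setting and multimapping were not stated. Of low counts, 65.3% to 77.2% were even numbers in each library, and a fit on halved counts was added after seeing the data, as was one without structural RNA. None of the 66 library pairs agreed within sampling noise.

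Here genes were filtered with filterByExpr, scaled by TMM and fitted over all 12 libraries with edgeR 4.0.16 (robust quasi-likelihood, R 4.3.3) in 8 comparisons, with Benjamini-Hochberg adjustment over 17426 genes and a threshold of 0.05; the fit was tested on simulated data. Log2 CPM used a prior count of 2. DESeq2 1.42.0 and other scalings, filters and covariates were alternatives. Libraries held 31295987 to 54001886 counts. Genes were named by the smallest p per complex and comparison, plus fixed catalytic, complex II and tissue-isoform genes. Where no gene of a complex passed, as for anti-PD-1, the rule was to give the most abundant. For anti-PD-1, genes called by DESeq2 were named as well, Ndufb4 among them, after their values were seen. Others, named to complete a complex or a count, were chosen after their values were seen. Members and lists were chosen with earlier results of these data known. The values of 1 gene are not reported here. Between entinostat and control, the 3 same-numbered pairs had deviations correlated at 0.176, 0.166 and 0.195, all above 0.1. In no other pair of groups did all 3 exceed 0.1. No label says what the numbers mark, so a pairing is possible and not established, and the replicate block is given as an alternative.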

Additional observations from a re-analysis of the deposited data

How the results depend on the processing

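Of the counts of calls, medians and named genes, none changed direction under the alternatives run. Of the mean log2 CPM of the complexes relative to control, 3 did with upper quartile scaling, within the spread between libraries: complex IV gave 0.06 in place of -0.16 for the combination and 0.11 in place of -0.05 with anti-PD-1, and complex III 0.07 in place of -0.10 with anti-PD-1. For the genes lower with entinostat against control (26 of 90), upper quartile scaling gave a count of 8, the replicate block 12, the transcript length offset 9 and the alveolar score as covariate 0 (50 at an unadjusted p under 0.05 in edgeR). For the combination against control (43) upper quartile scaling gave 18 and the alveolar covariate 6. For the main effect of entinostat (50) upper quartile scaling gave 28, the replicate block 32, the length offset 29 and the alveolar covariate 9. The shares of all genes in these fits are not given, so the counts do not show whether the 90 genes alone lost calls. DESeq2 called 7 genes with anti-PD-1 and 14 in the combination against anti-PD-1, where edgeR called 0. Upper quartile scaling moved the median of all genes by 0.20 for entinostat, 0.17 for anti-PD-1, 0.28 for the combination and 0.15 in the main effect, and the medians of the 90 genes were then -0.51, -0.12, -0.60 and -0.51. The length offset gave -0.39 for the combination against anti-PD-1 and -0.52 in the main effect. The mean log2 CPM of complex I relative to control was -0.76 for the combination and -0.65 for entinostat; upper quartile scaling gave -0.53 and -0.44, and the median over genes -0.99 and -0.86. With anti-PD-1 it was -0.20, and the median over genes gave -0.47. For complex III (-0.67 and -0.73) upper quartile scaling gave -0.44 and -0.53, and for complex IV (-0.16 and -0.25) the median over genes gave -1.06 and -1.09.

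Leaving out 1 library at a time, the count ranged over 0 to 28 for entinostat, 7 to 48 for the combination and 19 to 59 in the main effect, and was 0 throughout in the other comparisons. The medians ranged over -0.82 to -0.66 for entinostat, -0.41 to -0.16 for anti-PD-1, -0.92 to -0.71 for the combination, -0.73 to -0.47 for the combination against anti-PD-1, -0.21 to -0.0025 for the combination against entinostat, -0.73 to -0.58 and -0.26 to -0.10 in the main effects of entinostat and anti-PD-1, and 0.08 to 0.34 for the interaction. Over all groups the replicate numbers did not pair the libraries: 8 of 18 same-numbered pairs had deviations correlated above 0.1 and 1 of 12 libraries correlated best with its own number. The causes were not tested. With 3 libraries a group, differences smaller than the spread between them were not detectable.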
